A study of Arabidopsis thaliana with 13 samples.

Results

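The ERF and DREB genes encode transcription factors of the AP2/ERF superfamily, and they were examined here as places where the blue-light receptor CRY2 and the bHLH factors PIF4 and PIF5 sat on chromatin. Members were all nuclear protein-coding genes of the gene table whose symbol or synonym was ERF or CBF followed by a number, or began with RAP2. or DREB, in capital or small letters. The rule gave 53 genes of 27444. It also took in genes with a like name and another product: DRIP1 and DRIP2, ubiquitin ligases that act on DREB2A, and NAP57, a pseudouridine synthase with the synonym CBF5. The other 50 encode AP2/ERF superfamily proteins, among them RAV2 (synonym RAP2.8) and RAP2.7, which belong to the RAV and AP2 branches. The genes were chosen by name, but the family was picked with earlier results of these data known, and the peaks described were chosen by the authors' peak calls. Counts and strengths of peaks are therefore given as descriptions, with no test.

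Whole seedlings of Arabidopsis thaliana, ecotype Columbia, were grown in white light and moved at 5 days to low blue light for 16 h. Each line carried a tagged transgene: CRY2 with a Flag and His tag at its front (3xFlag-6xHis-CRY2), expressed from the UBQ10 promoter, PIF4-3xFlag-6xHis, or PIF5-Flash, whose tag also holds Myc (9xMyc-6xHis-3xFlag). The promoters of the PIF transgenes are not given in the sources used here. Chromatin was precipitated with an anti-FLAG antibody or mock IgG in 13 libraries: 2 FLAG and 2 IgG for CRY2, 3 and 2 for PIF4, and 2 and 2 for PIF5. For CRY2 18 g of material and a second cross-linker were used, for the PIFs 2 g and no second cross-linker, so CRY2 and PIF values differ in protocol as well as in protein. The authors pooled the replicates into 1 peak list per protein, which leaves no spread between replicates and no library depth to print. The lists held 7320 peaks for CRY2, 9925 for PIF4 and 3767 for PIF5, and the strength of a peak is the authors' fold enrichment of FLAG over control, compared within a list.

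ERF and DREB proteins bind short DNA elements through a single AP2 domain. ERF proteins bind GCC-box elements in genes of ethylene, jasmonate and defence responses, and DREB proteins bind the dehydration-responsive element in genes of cold, drought and heat responses. PIF4 and PIF5 bind G-box type elements and promote elongation in shade and warmth, and PIF4 is known as a repressor of the cold-induced DREB1 genes in warm conditions with long days. CRY2 has no DNA-binding domain of the usual kind and is held at chromatin through partner proteins, PIFs among them.

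Most members had a peak of at least 1 of the proteins. By the rule that a summit belongs to the nearest protein-coding gene within 3 kb, CRY2 was bound at 28 of the 53 members (52.8%), against 22.1% of all nuclear protein-coding genes. PIF4 was bound at 34 members (64.2%), against 28.7% of all genes. For PIF5 the count was 19 members (35.8%), against 11.9%. When instead every gene within 1 kb of a peak counted, 33 members (62.3%) were near a CRY2 peak, 42 (79.2%) near a PIF4 peak and 25 (47.2%) near a PIF5 peak, and the shares of all genes were 32.3, 41.7 and 17.8%. All 3 proteins lay within 1 kb of 20 members (37.7%), against 12.2% of all genes, and 9 members (17.0%) had no peak of any protein at that distance, against 48.6%.

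The members were shorter genes with longer space around them than most. Their median length was 1280 bp, against 2078 bp for all genes, and the median distance to the neighbouring protein-coding genes, both sides added, was 4395 bp, against 1855 bp. Among all 6176 genes with flanks at least as long as 4395 bp, CRY2 was bound at 24.9%, PIF4 at 39.3% and PIF5 at 17.0%. Among the 27 members with such flanks the shares were 51.9, 70.4 and 40.7%. Other families of transcription factors, found by their names, had CRY2, PIF4 and PIF5 at 38.0, 57.7 and 42.3% of 71 WRKY genes, 27.3, 38.4 and 17.2% of 99 NAC genes and 24.8, 41.6 and 16.8% of 125 MYB genes. None of these differences between families was tested.

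By the nearest-gene rule, 11 members (20.8%) were bound by all 3 proteins, against 7.21% of all genes. CRY2 and PIF4 without PIF5 were at 10 (18.9%, against 6.39%), and PIF4 and PIF5 without CRY2 at 5 (9.43%, against 3.92%). CRY2 and PIF5 without PIF4 were at 3 members (5.66%), a state found at 0.459% of all genes. PIF4 alone was at 8 members (15.1%, against 11.2%) and CRY2 alone at 4 (7.55%, against 8.0%). No member was bound by PIF5 alone (0.281% of all genes), and 12 (22.6%) were bound by none, against 62.5%. The 3 members with CRY2 and PIF5 were ERF4, ERF5 and ERF104. Each of them was also overlapped by a PIF4 peak whose summit was nearer to another gene, so PIF4 was not counted there. They are named because the count is small, after their values were seen.

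**Figure D1:**
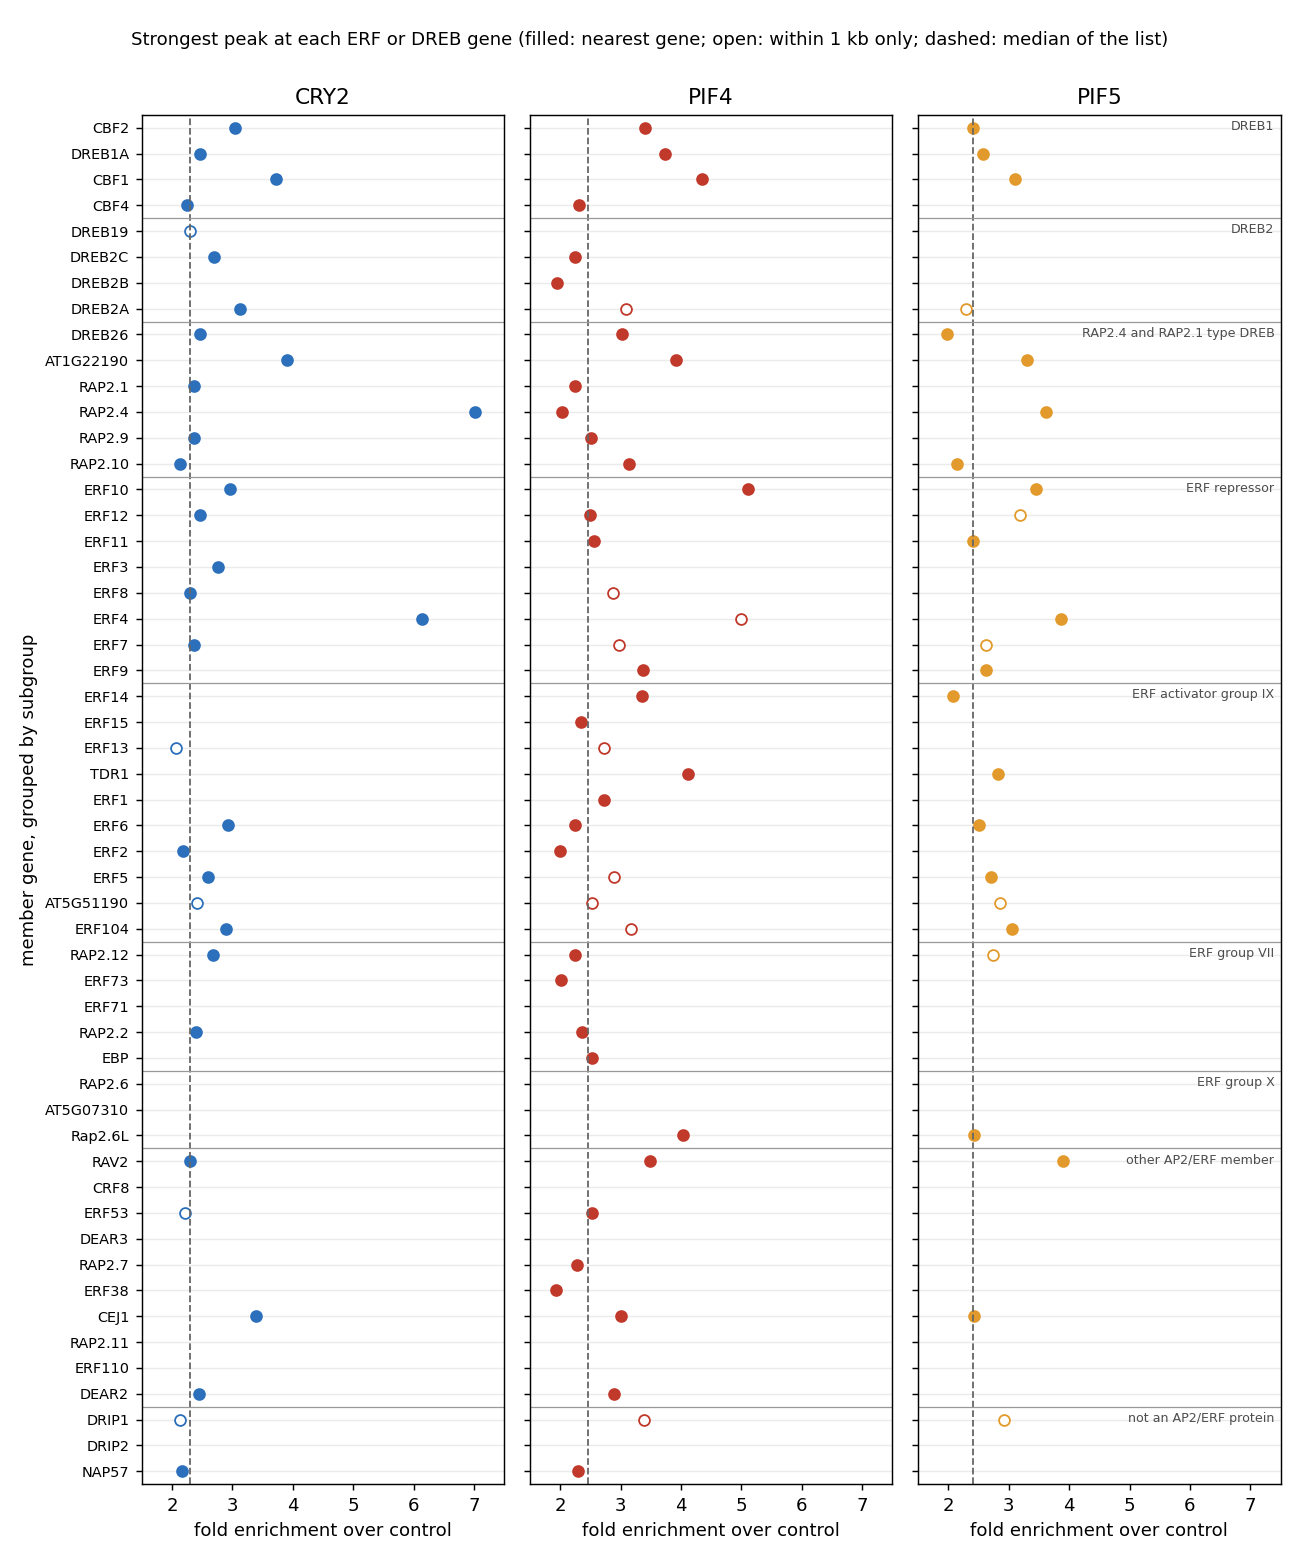
Fold enrichment over control (horizontal axis) of the strongest peak of CRY2, PIF4 and PIF5 at each of the 53 members (vertical axis), grouped by subgroup; filled points are peaks whose nearest gene is the member, open points are peaks within 1 kb that are nearer to another gene, and the dashed line is the median of all peaks in the list. RAP2.4 at 7.01 and ERF4 at 6.14 stand far to the right for CRY2, while ERF10 at 5.11 is the strongest filled PIF4 point.

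The 4 DREB1 members, activators of the cold-response regulon, were all bound by CRY2 and PIF4, and 3 of them by PIF5. CBF2, DREB1A (CBF3) and CBF1 lie next to each other on chromosome 4, and each had peaks of all 3 proteins. At CBF1 the strongest CRY2 peak had a fold enrichment of 3.72 (chr4:13022741-13024022), within the strongest 1.67% of the CRY2 list, and a further CRY2 peak of 2.87 lay on its other side. The PIF4 peaks of CBF1 had 4.35 and 3.86 and its PIF5 peaks 3.10 and 2.73. By the CRY2 peak of 3.72 the CRY2 and PIF4 summits were 54 bp apart, and by the CRY2 peak of 2.87 they were 394 bp apart. All of these summits were outside the gene, from 101 to 731 bp away. The folds at CBF2 were 3.04 (CRY2), 3.4 (PIF4) and 2.4 (PIF5), and the summits lay 110, 99 and 98 bp from the gene. The 3 summits thus fell within 12 bp of each other. A smaller CRY2 peak of 2.3 lay on the other side of CBF2.

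DREB1A had CRY2 peaks of 2.47 and 2.45 with summits inside the gene, PIF4 peaks of 3.74 outside and 3.05 inside, and a PIF5 peak of 2.57 just outside, at 11 bp. The PIF4 peak of 3.74 (chr4:13017085-13018671) also lay within 1 kb of CBF2. Within the cluster every CRY2 peak overlapped a PIF4 peak. CBF4, a drought-induced DREB1 gene on chromosome 5, had weaker peaks, with 2.24 for each of its CRY2 peaks and 2.31 for PIF4. The closest PIF5 summit was 32442 bp from its PIF4 summit.

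**Figure D2:**
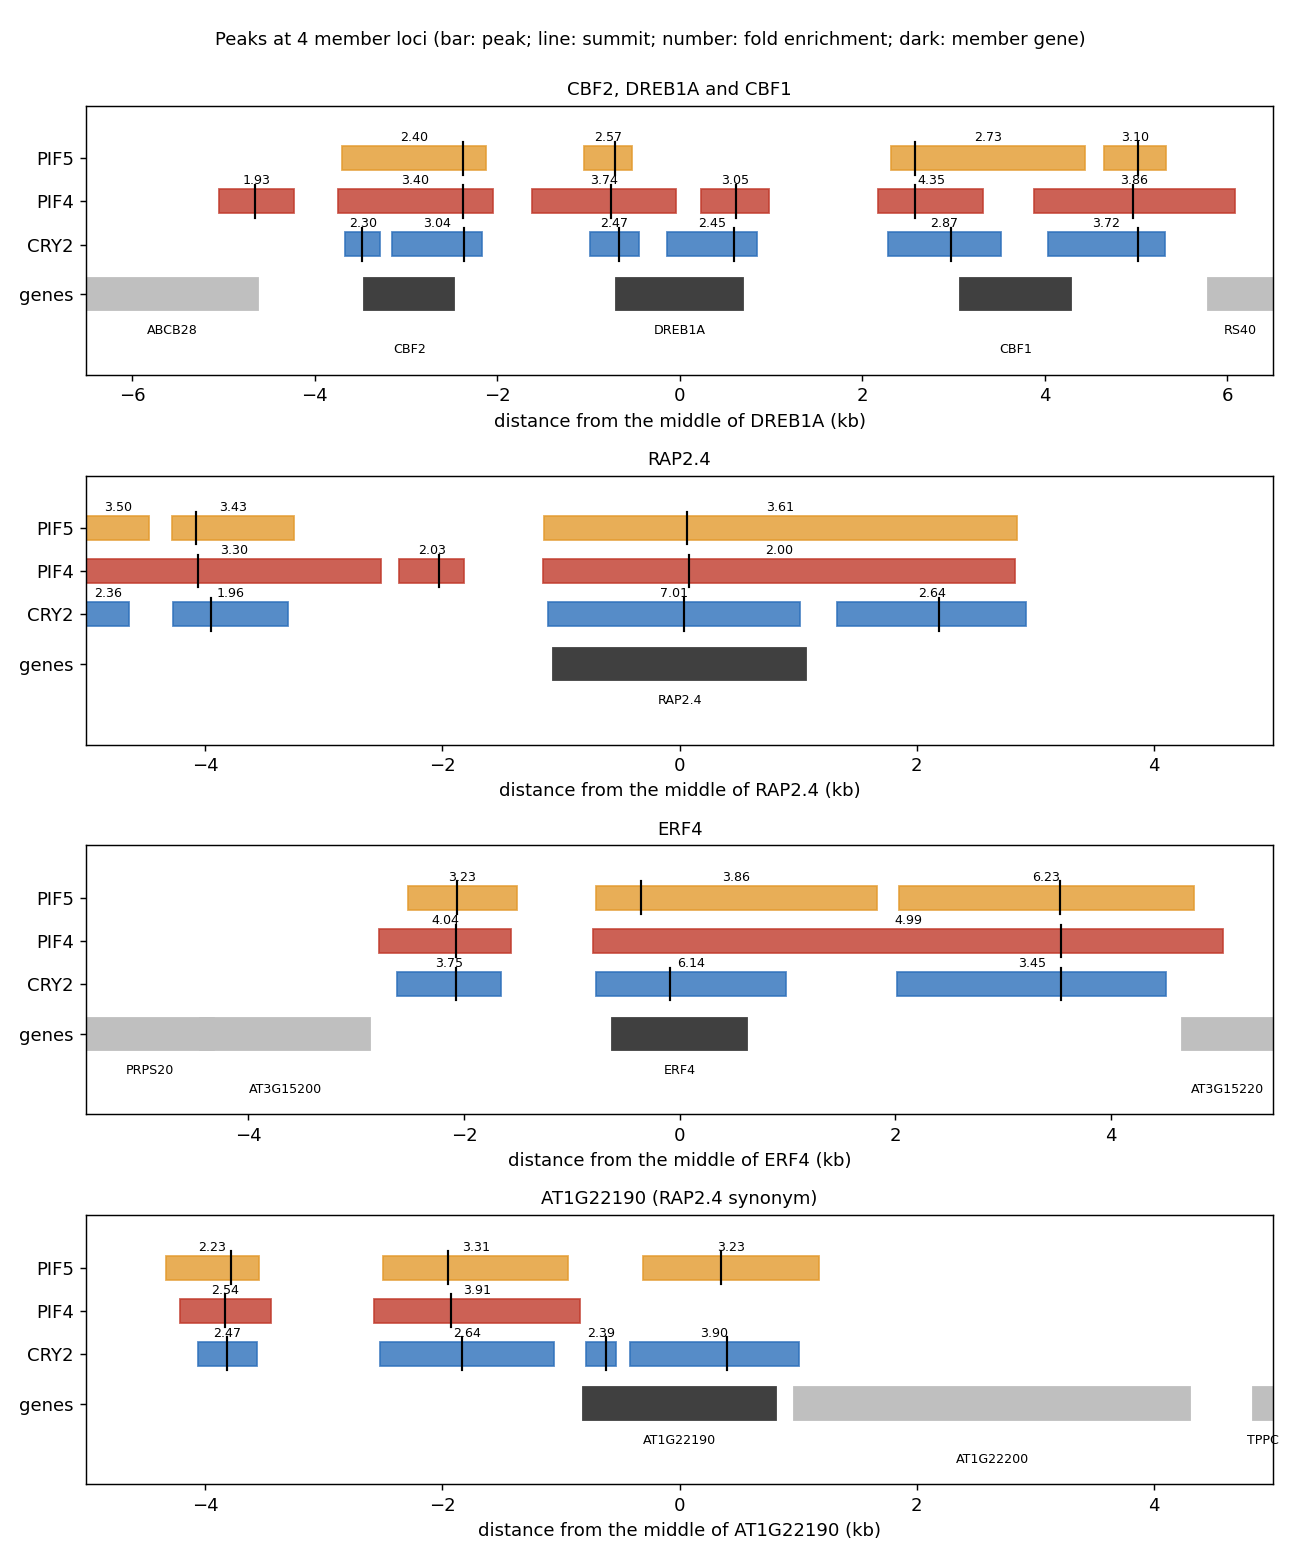
Peaks of CRY2, PIF4 and PIF5 (coloured bars, with a line at the summit and the fold enrichment above) around the CBF2, DREB1A and CBF1 cluster, RAP2.4, ERF4 and AT1G22190, drawn to scale against distance in kb from the middle of the gene named on each horizontal axis; member genes are dark and other protein-coding genes grey. Summits of the 3 proteins stack beside CBF2 and on the right side of CBF1, while on its left side the CRY2 summit is 394 bp from that of PIF4, and at RAP2.4 and ERF4 the strongest CRY2 peak (7.01 and 6.14) lies over the gene.

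The DREB2 genes, which act in drought and heat responses, had fewer peaks than the DREB1 members. CRY2 and PIF4 were each at 2 of the 4, against 22.1 and 28.7% of all genes. PIF5 was at none, against 11.9% of all genes, and 4 genes are too few to tell these shares apart. DREB2A had a CRY2 peak of 3.13 over the gene (chr5:1602053-1604401), in the strongest 5.08% of the list. A PIF4 peak of 3.09 and a PIF5 peak of 2.29 lay within 1 kb of DREB2A, but their summits, 862 and 800 bp from it, were nearer to AT5G05400. DREB2C had 2.70 for CRY2 and 2.24 for PIF4, with summits 89 bp apart outside the gene. DREB2B had a PIF4 peak of 1.94 alone, low in its list. DREB19 was bound by none, and a CRY2 peak of 2.29 within 1 kb belonged to its neighbour AT2G38350.

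The other DREB members listed here as of the RAP2.4 and RAP2.1 kind were all bound by CRY2 and PIF4, 6 of 6, and 4 of them by PIF5. This list left out CEJ1, DEAR2, DEAR3 and ERF53, so the count depends on how it was drawn up. CEJ1 was bound by all 3 proteins, DEAR2 by CRY2 and PIF4, ERF53 by PIF4 alone and DEAR3 by none. RAP2.4, also called WIND1, which drives dedifferentiation at wounds, had the strongest CRY2 peak of any member, 7.01 with a -log10 p of 69.86 (chr1:29364029-29366158), in the strongest 0.041% of the CRY2 list. The PIF5 peak over the same gene had 3.61, in the strongest 8.04% of its list. The PIF4 peak there had 2.00 and ranked low, at 85.6% of the PIF4 list counted from the strongest. The CRY2 and PIF4 summits were 41 bp apart and the PIF4 and PIF5 summits 13 bp apart. By fold enrichment, the same spot thus stood high in the lists of CRY2 and PIF5 and low in that of PIF4. The -log10 p of this PIF4 peak was 29.26, near the median of 31.3 for all assigned PIF4 peaks.

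AT1G22190, which shares the synonym RAP2.4, had a CRY2 peak of 3.90 and a PIF5 peak of 3.23 inside the gene with summits 55 bp apart, and no PIF4 peak overlapped either. Outside the gene, 1023 to 1133 bp away, peaks of all 3 proteins overlapped, with folds of 2.64 (CRY2), 3.91 (PIF4) and 3.31 (PIF5). DREB26 had 2.47 for CRY2 and 1.97 for PIF5 inside the gene. A PIF4 peak of 3.05 (chr1:7694087-7698254) covered the gene and overlapped both, but its summit was 2065 bp away and nearer to p24delta5. At 1395 bp from DREB26 lay the summit of a PIF4 peak of 3.03, 71 bp from that of a second CRY2 peak of 2.13. RAP2.10 had 2.13, 3.14 and 2.15, but its CRY2 peak overlapped no PIF peak. RAP2.1 and RAP2.9 had CRY2 peaks of 2.36 each and PIF4 peaks of 2.24 and 2.51, without PIF5.

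The ERF repressors, which carry an EAR motif and lower the expression of their targets, were bound by CRY2 at 6 of 8, by PIF4 at 4 and by PIF5 at 4. ERF10 had the strongest PIF4 peak among members, 5.11 with a summit 46 bp outside the gene (chr1:956027-958411), in the strongest 0.181% of the PIF4 list. A PIF5 peak of 3.45 had its summit 17 bp away from that of PIF4. The CRY2 peak of ERF10 (2.96) lay inside the gene, 25 bp from the summit of a weaker PIF5 peak of 2.27 and 1073 bp from the PIF4 summit.

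ERF4, a repressor of ethylene and abscisic acid responses, had a CRY2 peak of 6.14 inside the gene (chr3:5121155-5122916), and its -log10 p of 77.16 was the highest of the CRY2 list. A PIF5 peak of 3.86 lay over the same gene, with its summit 269 bp from that of CRY2. PIF4 was not counted as bound at ERF4, yet a PIF4 peak of 4.99 spanned 5846 bp (chr3:5121128-5126973) and covered the gene, its summit 2908 bp away and nearer to AT3G15220. A further PIF4 peak of 4.04 and a PIF5 peak of 3.23 lay 1445 and 1433 bp from ERF4 on the other side and were nearer to AT3G15200. Both overlapped a CRY2 peak that was not assigned to ERF4, with its summit 5 and 7 bp from theirs.

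Among the other repressors, ERF9 had a PIF4 peak of 3.37 and PIF5 peaks of 2.63 and 2.16. The PIF5 peak of 2.16 had its summit at that of PIF4, 419 bp from the gene. The PIF5 peak of 2.63 lay farther out, at 1451 bp, and overlapped a CRY2 peak with its summit 68 bp away. That CRY2 peak was not assigned to ERF9. ERF11 had PIF4 and PIF5 peaks of 2.56 and 2.4, and neither gene counted as bound by CRY2. ERF12 had 2.47 for CRY2 and 2.50 for PIF4 inside the gene. A PIF5 peak of 3.19 and a PIF4 peak of 4.30 within 1 kb were nearer to AT1G28350. Their summits were 54 bp apart, and both overlapped a CRY2 peak not assigned to ERF12. That PIF4 peak was in the strongest 2.91% of its list. ERF3, ERF7 and ERF8 were bound by CRY2 alone under the nearest-gene rule, with 2.76, 2.36 and 2.3. However, a PIF4 peak of 2.98 reached over part of ERF7 and a PIF4 peak of 2.88 covered ERF8. Their summits lay 471 and 905 bp outside these genes and were nearer to neighbours. A PIF5 peak of 2.63 within 1 kb of ERF7 also belonged to a neighbour. ERF3 was thus the only repressor with no PIF peak under either rule.

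The ERF activators of group IX, which act in ethylene, jasmonate and defence responses, were bound by PIF4 at 6 of 10, by PIF5 at 5 and by CRY2 at 4. ERF6, which acts in defence and in growth arrest under osmotic stress, was the 1 member of the group with all 3 proteins, and the folds were 2.93 (CRY2), 2.25 (PIF4) and 2.50 (PIF5), all with summits inside the gene. ERF5, its close relative, had CRY2 peaks of 2.59 and 2.24 and a PIF5 peak of 2.71. A PIF4 peak of 2.89 that reached over part of ERF5 had its summit nearer to NUDT8. A PIF4 peak of 2.12 also reached over part of ERF5, with its summit 48 bp away and nearer to AT5G47229. ERF104, a factor released by a MAP kinase in flagellin responses, had 2.9 for CRY2 and 3.06 for PIF5 inside the gene, and lay within 1 kb of a CRY2 peak of 3.93 and a PIF4 peak of 3.18 that belonged to neighbours. ERF2 had 2.18 for CRY2 and 2.00 for PIF4.

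TDR1 (ERF98) had the strongest PIF4 peak of the group, 4.11 (chr3:8289552-8290989), with a PIF5 peak of 2.83 whose summit was 24 bp away, and no CRY2. ERF14 had PIF4 peaks of 3.35 and 3.16 and a PIF5 peak of 2.08, also without CRY2. ERF1, which joins ethylene and jasmonate signals, was bound by PIF4 alone (2.72), with the summit 1785 bp from the gene. ERF15 also had PIF4 alone (2.34). ERF13 and AT5G51190 (ERF105) were bound by none under the nearest-gene rule. Both were within 1 kb of peaks of their neighbours, with 2.07 for CRY2 and 2.72 for PIF4 at ERF13, and 2.42, 2.52 and 2.86 for CRY2, PIF4 and PIF5 at AT5G51190. The CRY2 and PIF5 summits at AT5G51190 lay inside it and inside AT5G51180, which overlaps it and comes first in the gene table.

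The group VII ERFs, which are stabilised when oxygen is low and switch on fermentation genes, were bound by PIF4 at 4 of 5, by CRY2 at 2 and by PIF5 at none. With 11.9% of all genes bound by PIF5, 5 genes are too few to read the absence as a trait. Their strongest assigned PIF4 peaks had 2.52 at EBP (RAP2.3), 2.36 at RAP2.2, 2.25 at RAP2.12 and 2.02 at ERF73 (HRE1). Stronger PIF4 peaks within 1 kb, of 3.14 at ERF73 and 2.99 at RAP2.12, had summits nearer to AT1G72350 and AT1G53903. CRY2 peaks of 2.68 and 2.4 lay inside RAP2.12 and RAP2.2, and the PIF4 summits 2 and 67 bp from them belonged to weaker PIF4 peaks, of 1.83 and 2.21. A PIF5 peak of 2.74 within 1 kb of RAP2.12 was nearer to AT1G53903. ERF71 (HRE2) had no peak within 1 kb.

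**Figure D3:**
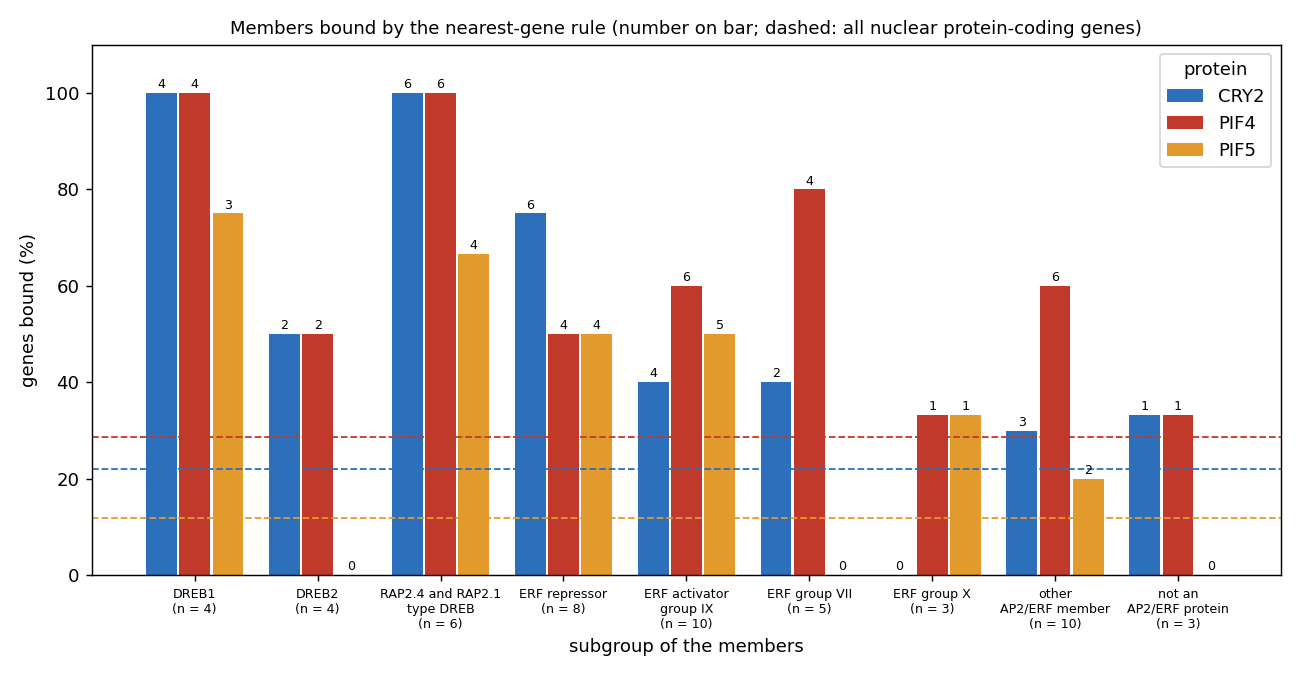
Share of members bound by CRY2, PIF4 and PIF5 under the nearest-gene rule (vertical axis, %) in each subgroup (horizontal axis, with the number of members), the number bound being written on each bar; dashed lines give the share of all nuclear protein-coding genes (22.1, 28.7 and 11.9%). The members listed as DREB1 and as RAP2.4 type reach 100% for CRY2 and PIF4. PIF5 is at 0 in DREB2 and group VII, which hold too few genes to set this apart from 11.9%.

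Of the group X members, Rap2.6L, which acts at wounds and in shoot regeneration, had PIF4 peaks of 4.04 and 2.67 and PIF5 peaks of 2.42, 2.31 and 2.23, with no CRY2. RAP2.6 and AT5G07310 (ERF115) were bound by none. The remaining 10 AP2/ERF members were bound by CRY2 at 3, by PIF4 at 6 and by PIF5 at 2. RAV2, also called TEM2 and known as a repressor of flowering, had 2.3 for CRY2, 3.48 for PIF4 and 3.89 for PIF5. On the flank of RAV2 the summits of the 3 proteins were within 1 bp, while over the gene the PIF5 peak (3.89) was in the strongest 5.31% of its list and the PIF4 peak there had 2.33. CEJ1, a DREB protein with an EAR motif that is linked to cold and pathogen responses, had 3.39 for CRY2 inside the gene, 3.01 for PIF4 and 2.42 for PIF5.

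DEAR2, a relative of CEJ1, had 2.44 for CRY2 and 2.89 for PIF4, both inside the gene. RAP2.7 (TOE1), a flowering repressor, and ERF53 and ERF38 had PIF4 alone, with 2.28, 2.52 and 1.93. CRF8, DEAR3, RAP2.11 and ERF110 were bound by none. Of the 3 genes with another product, NAP57 had 2.17 for CRY2 and 2.29 for PIF4, DRIP2 was bound by none, and DRIP1 was within 1 kb of a PIF4 peak of 3.39 and a PIF5 peak of 2.92 nearer to GAUT6.

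Over all assigned peaks, the share of summits inside member genes was close to that over all genes for CRY2 and PIF4, and higher for PIF5. Of 43 CRY2 peaks assigned to members, 26 had the summit inside the gene (60.5%, 95% Wilson interval 45.6 to 73.6), close to the 60.4% of all CRY2 peaks assigned to genes. Of 50 PIF4 peaks 15 were inside (30.0%, 19.1 to 43.8), against 34.0% of all assigned PIF4 peaks. PIF5 had 13 of 27 inside (48.1%, 30.7 to 66.0), against 36.5%. The intervals cover counting error only and take the peaks of the same gene as separate. Each holds the share of all genes, but they are wide and cannot show that the shares are alike. Differences between the proteins were not tested. For the strongest CRY2 peak of each member, 22 of 28 were inside (78.6%, 60.5 to 89.8), against 61.0% of the strongest CRY2 peaks of all bound genes. For PIF4 the same share was 20.6% of 34, against 33.4%. Outside the genes, the median distance of a summit was 250 bp for CRY2, 448 bp for PIF4 and 605.5 bp for PIF5, and no assigned summit lay beyond 1803 bp, the PIF4 summit at ERF14. Since the gene table gives no strand, upstream and downstream positions could not be told apart.

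**Figure D4:**
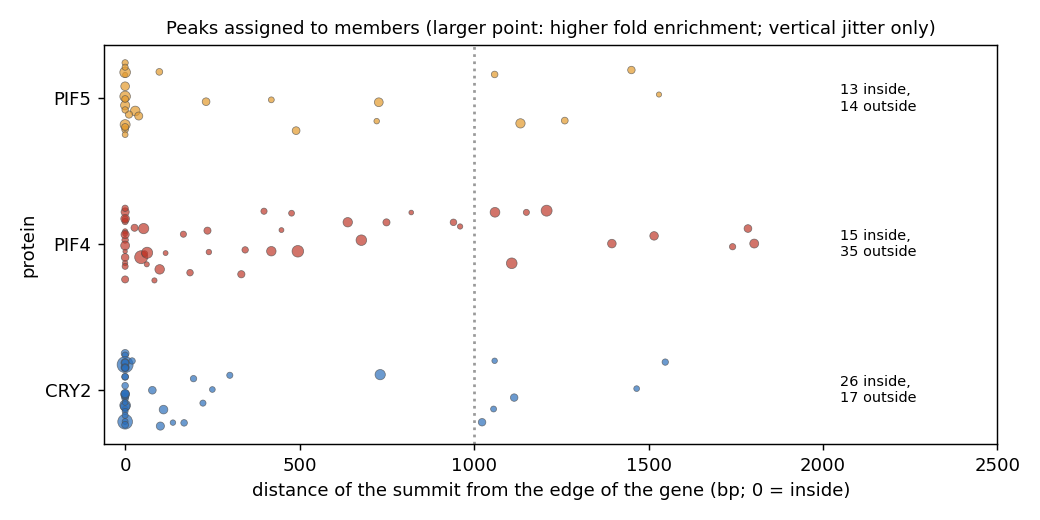
Distance in bp of each peak summit from the edge of the member gene it was assigned to (horizontal axis, 0 for summits inside the gene) for CRY2, PIF4 and PIF5 (vertical axis, points spread vertically only to be seen); larger points have higher fold enrichment and the dotted line marks 1000 bp. The CRY2 row has 26 summits inside and 17 outside, the PIF4 row 15 and 35, and the PIF5 row 13 and 14.

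Members often held more than 1 peak of the same protein. CRY2 had at least 2 peaks at 14 of its 28 bound members, against 16.0% of all genes it bound. The counts were 13 of 34 for PIF4 (38.2%, against 19.0%) and 7 of 19 for PIF5 (36.8%, against 11.6%). The peaks were of ordinary strength for PIF4, with a median fold enrichment of 2.43 (range 1.83 to 5.11) against 2.46 for all assigned PIF4 peaks. Medians were 2.44 for CRY2 (2.07 to 7.01) against 2.29, and 2.50 for PIF5 (1.97 to 3.89) against 2.4. The strongest 10% of each list held 11 of the 43 CRY2 peaks, 7 of the 50 PIF4 peaks and 3 of the 27 PIF5 peaks at members.

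Most CRY2 peaks at members touched a PIF peak, while fewer shared its extent or summit. Of the 43, 39 overlapped a PIF4 or PIF5 peak by at least 1 bp, 20 overlapped both, and 4 overlapped neither. Inside genes 23 of 26 CRY2 peaks overlapped a PIF peak, and outside 16 of 17. For these counts no share over all CRY2 peaks was computed, and such shares are given below for each PIF alone. A PIF4 peak was met by 88.4% of the 43, against 60.5% of all CRY2 peaks assigned to genes, and a PIF5 peak by 48.8%, against 33.1%. The CRY2 peaks that met no PIF peak were the 1 at ERF3, the 1 at RAP2.10, the smaller peak of 2.39 in AT1G22190 and the smaller peak of 2.13 in ERF2. Under a rule that both peaks share 50% or more of their length, 17 of the 43 CRY2 peaks matched a PIF4 peak (39.5%, against 33.4% of all assigned CRY2 peaks) and 15 a PIF5 peak (34.9%, against 22.6%). With summits within 100 bp, 15 of the 43 matched PIF4 (34.9%, against 28.3%) and 10 matched PIF5 (23.3%, against 16.3%). Counted by gene, CRY2 and PIF4 summits were within 100 bp of each other at 14 of the 21 members bound by both (66.7%), against 50.3% of all genes bound by both, and CRY2 and PIF5 summits at 10 of 14 (71.4%, against 52.0%). Peaks assigned to a member or within 1 kb of a member were merged where they overlapped, which gave 75 regions. Of these, 19 held all 3 proteins, 17 CRY2 and PIF4, 11 both PIFs, 1 CRY2 and PIF5, 19 PIF4 alone and 8 CRY2 alone. CRY2 peaks farther than 1 kb from the member were left out of the merging. Such CRY2 peaks overlapped a region counted as both PIFs at ERF4, ERF12, RAP2.12 and ERF9, so those places held CRY2 as well. No region held PIF5 alone. The regions of all genes were not split in this way, so these counts have no share to be read against.

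The call depended on the assignment rule for a number of members. Under the 1 kb rule, 5 members gained CRY2, 9 gained PIF4 and 6 gained PIF5, and ERF1 lost PIF4. The strongest such peaks were those of PIF4 at ERF4 (4.99 and 4.04), of PIF5 at ERF12 (3.19), and of PIF4 at DRIP1 (3.39) and ERF104 (3.18). Among the 12 members bound by none, 7 had a summit within 3 kb that was assigned to another gene. The closest summit was 0 bp from AT5G51190, 561 bp from DREB19, 1011 bp from DRIP1 and 1043 bp from ERF13, all of CRY2. It was 1355 bp from AT5G07310 (PIF4), 1517 bp from RAP2.11 (CRY2) and 2780 bp from DRIP2 (PIF4). RAP2.6 was the most isolated, with the closest CRY2 summit at 37933 bp and the closest PIF4 summit at 125935 bp.

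Genes that act before or after the members were listed from textbook knowledge, and their counts can be read beside the shares of all genes (22.1% for the CRY2 list, 28.7% for PIF4 and 11.9% for PIF5). Of the ethylene receptors and signalling genes, PIF4 was at 8 of 11, PIF5 at 6 and CRY2 at 5, with all 3 at ERS1, ERS2, EIL1, EBF1 and EBF2. The transcription factor EIL1, which activates ERF1, had 2.34 for CRY2, 4.24 for PIF4 and 3.41 for PIF5, and its relative EIN3 had PIF4 and PIF5 peaks of 3.81 and 2.14. Of 8 regulators of the DREB1 genes, PIF4 was at 4, CRY2 at 3 and PIF5 at 1, and neither ICE1 nor SCRM2, the bHLH activators of CBF3, had a peak under either rule. MYB15, which represses DREB1 genes, had 2.18, 3.30 and 2.12 for CRY2, PIF4 and PIF5.

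Of 8 target genes of DREB proteins, PIF4 was at 7, CRY2 at 4 and PIF5 at 3. The dehydrin genes COR47 and ERD10 had CRY2 peaks of 4.89 and 3.76, PIF4 peaks of 3.00 and 4.25 and PIF5 peaks of 3.55 and 4.16. KIN2 had 2.48, 4.18 and 2.95, and COR15B had none. Of 7 genes of low-oxygen responses and of the turnover of group VII proteins, CRY2 was at 3, PIF4 at 2 and PIF5 at 1. LBD41 had all 3 (4.18, 3.37 and 2.97), and the alcohol dehydrogenase gene ADH1 had none. Of 16 further AP2/ERF genes outside the name rule, PIF4 was at 9, CRY2 at 7 and PIF5 at 2. RAV1 (3.27, 3.89 and 3.25) and the floral gene AP2 (2.93, 2.77 and 2.26) had all 3, and TEM1, the relative of RAV2, had 2.42 for CRY2 and 3.32 for PIF4.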

How the data were processed

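The authors deposited 1 peak list per protein (CRY2, PIF4, PIF5), with replicates pooled, as the peak names in the files show. Tools given in the submitters' processing notes, without role or order, are MACS2 2.0.10, Bowtie2 2.1.0, and CASAVA 1.8.2, and the build given is TAIR10. Each list holds the authors' fold enrichment over control (a ratio), the deposited -log10 p and a deposited score, which equals that -log10 p times 10 with its decimals dropped. Depth is unknown. All columns of values were mapped (0 left aside).

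Gene names and spans came from a RefSeq table of assembly TAIR10.1 without strand. Its frame was checked by a shift of 2000 bp, after which the share of PIF4 summits outside genes within 1 kb fell from 49.3 to 20.2%. Coordinates printed are those of the peaks, counted from 1. A summit in overlapping genes counted for the first in table order. No promoter or protein sequence table was used here, so the planned motif counts were left out.

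The members, subgroups and lists were chosen with earlier results of these data known. Genes with values in the text followed a rule: the best-ranked members with all 3 proteins, the strongest in each other combination, all DREB1, DREB2 and group VII members, and up to 4 of each other list, with the remaining members added to account for all 53. Alternatives covered gene assignment, stricter lists, lists of equal size (3767 peaks), member naming and overlap. Assignment and overlap were tested on 2000 simulated peaks with 100% correct. Work used Python 3.11.15, numpy 2.4.6, pandas 2.3.3, statsmodels 0.14.6 and matplotlib 3.10.9.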

Additional observations from a re-analysis of the deposited data

How the results depend on the processing

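Of 68 alternative values, 51 stayed within 1.5 times the main count, or within its interval for a share, and 17 moved, a median being taken as moved at any change. With only summits outside genes within 1 kb, CRY2 was at 8 members and PIF5 at 8 (15.1% each, against 8.13 and 6.41% of all genes). PIF4 was at 20 with the upper 50% of its list and at 15 with lists of equal size, against 15.8 and 12.2% of all genes, while its share of members was 37.7 and 28.3%. Lists of equal size also gave 1 member with CRY2 and PIF4 without PIF5, 5 with CRY2 and PIF5 without PIF4, 10 with CRY2 alone, 1 with PIF4 alone, 1 with PIF5 alone and 22 with none, so the split of members among combinations depends on the length of the lists. When the nearest gene gave way to all genes within 1 kb, 20 members had all 3 proteins, 0 had CRY2 and PIF5 without PIF4, and 2 had CRY2 alone. The strongest peak per member gave 78.6% of CRY2 summits inside genes and median fold enrichments of 2.53 (CRY2), 2.52 (PIF4) and 2.63 (PIF5). Leaving out the 3 genes that are not AP2/ERF genes, chosen after seeing the data, left 27, 33 and 19 members bound by CRY2, PIF4 and PIF5. No paired analysis was possible because the replicates are pooled in each list, and for the same reason no replicate could be left out. Counts moved with fewer peaks or summits, or more genes, being counted, as the alternatives are built. The cause of the move in the CRY2 share inside genes, which went from 60.4 to 61.0% over all genes, was not tested. Motif alternatives were not run.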

Other observations

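Some genes of the same subgroups carry other names in the gene table and so fell outside the name rule. Of 14 such genes, 5 were bound by none of the proteins under the nearest-gene rule, among them 3 of 4 DREB2 genes. Over all genes, 62.5% were bound by none. Of these DREB2 genes, AT2G40350 still lay within 1 kb of CRY2 and PIF4 peaks of 2.70 and 2.24. DDF1, a DREB1 gene of salt and gibberellin responses, had a CRY2 peak of 4.54, above that of any DREB1 member, with PIF4 and PIF5 peaks of 2.45 and 2.15, while its relative ddf2 had none. ERF-1, next to ERF6 on chromosome 4, had 3.42 for CRY2, 2.63 for PIF4 and 2.19 for PIF5. ORA59, an activator of jasmonate and ethylene defence genes, had PIF4 and PIF5 peaks of 3.69 and 2.12 and no CRY2. The group X genes ABR1 and RRTF1 had all 3 proteins, with 2.4, 3.27 and 2.59 at ABR1 and 2.70, 3.03 and 2.03 at RRTF1.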
